A study of Mus musculus with 6 samples.

Results

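The genes described here are Osr1, Osr2, Wt1, Dpf3, Traf1, Crym and Spock2, 7 genes that are known from nephron progenitors or from the mesoderm that gives rise to them. They were taken as every probe set that the platform annotation assigns to exactly 1 of these symbols, which gave 11 of 34958 probe sets with 1 symbol and all 7 genes among 18194. RNA was measured on 6 one-colour Affymetrix arrays of EGFP-positive cells, sorted by fluorescence from the intermediate mesoderm of mouse embryos at E11.5. In 3 samples the embryos were Pax2 null with EGFP on both alleles (EGFP/EGFP), and in 3 they were Pax2 heterozygotes with EGFP on 1 allele (EGFP/+). The comparison thus includes no wild-type cells, and the loss of the second Pax2 allele cannot be told apart from the second EGFP copy. The labels do not state whether the samples derive from different animals or litters. The p-values therefore describe the spread between these 6 samples, part of which may be technical.

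The permanent kidney forms when the ureteric bud grows into the metanephric mesenchyme, whose progenitors condense as a cap around the bud tips and give rise to the nephrons. Osr1 and Osr2 are odd-skipped zinc finger factors. Osr1 is among the earliest markers of the intermediate mesoderm and is needed for the mouse metanephros to form, while Osr2 is best known for its part in palate growth and is also made in the mesonephros. Wt1, the Wilms tumour zinc finger factor, is needed for the survival of the metanephric mesenchyme and for the gonads. The other genes encode a subunit of the BAF chromatin remodelling complex (Dpf3), an adaptor of tumour necrosis factor receptors (Traf1), a thyroid hormone binding protein (Crym) and the secreted proteoglycan testican-2 (Spock2).

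Values are the deposited log2 values, and a change is the null mean minus the heterozygote mean. Where a gene had several probe sets, the brightest on average stood for it. Array medians lay between 6.12 and 6.24, and arrays of 1 genotype correlated at 0.976 to 0.991 over all probe sets. Values of Pax2 are not used here, and the genotypes rest on the labels alone. The labels give no batch, but the hybridization controls matched the arrays into 3 pairs of 1 null and 1 heterozygote. These controls are bacterial and phage transcripts added for the hybridization step. Pair 1 held null 3 and heterozygote 1, pair 2 null 1 and heterozygote 2, and pair 3 null 2 and heterozygote 3. Mean bioB control values (log2) on the null and the heterozygote array were 10.55 and 10.52 for pair 1. They were 8.20 and 7.81 for pair 2 and 7.23 and 7.24 for pair 3, so pair 1 stood apart. Differences within pairs are therefore given beside the pooled change of each of the 7 genes.

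Of the 7 genes, only Traf1 passed the test over all genes, and it was lower in null cells. The test was limma, a linear model that borrows variance information across genes, with Benjamini-Hochberg adjusted p under 0.05. Of all 18194 genes 0.583% passed with a lower value in null, 0.808% with a higher one and 1.39% in either direction. Crym and Spock2 were also lower in null without overlap between the genotypes but did not pass, Osr1 overlapped, Osr2 was higher, and Wt1 and Dpf3 were nearly level. The arrays did not overlap for 4 of the 7 genes, 3 lower and 1 higher in null, against 13.6% of all genes in either direction. All 3 pairs were lower in null for 4 genes, as for 23.5% of all genes, and all 3 were higher for 1, as for 19.1%. An unadjusted p under 0.05 was found for 4 of the 7 genes, against 9.73% of all genes, the share to set beside such counts in the gene lists. The median change of the 7 was -0.81, against -0.02 over all genes. The 7 were chosen with earlier results of these data known, so the counts and the median do not test them against all genes. In bulk samples, fewer cells that express a gene and less RNA per cell cannot be told apart.

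**Figure D1:**
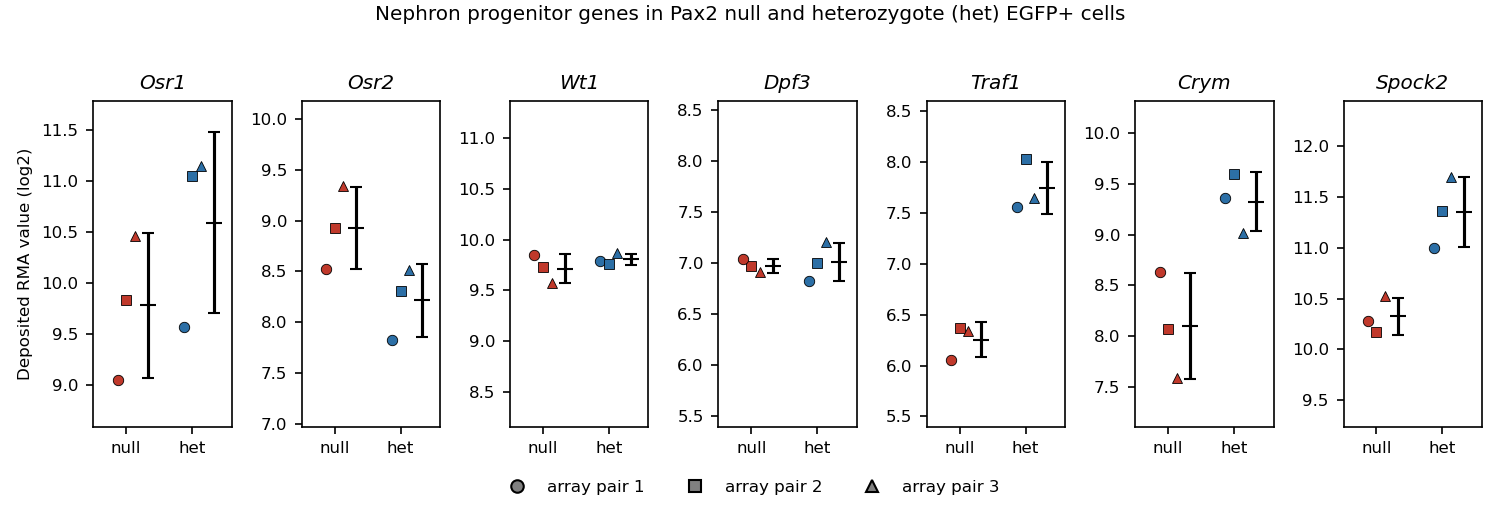
Deposited log2 values (vertical axis, each panel spanning the same number of log2 units) of the 7 genes in null (left, red) and heterozygote (right, blue) arrays, 1 symbol per array with its shape giving the array pair, and bars for the mean ± SD (n = 3). The Traf1 null arrays lie between 6.05 and 6.37, under all heterozygote arrays, while for Osr1 heterozygote 1 at 9.56 lies among the null arrays.

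Osr1 had values of 9.84, 10.46 and 9.04 in nulls 1 to 3, against 9.56, 11.06 and 11.15 in heterozygotes 1 to 3. The genotypes overlapped, because both arrays of pair 1 were the lowest of their genotype and heterozygote 1 lay under nulls 1 and 2. The means were 9.78 ± 0.71 in nulls and 10.59 ± 0.89 in heterozygotes (SD, n = 3 each), a change of -0.81 with a 95% interval from -1.94 to 0.32 (limma, adjusted p = 0.757). Within pairs 1, 2 and 3 the differences were -0.52, -1.22 and -0.69. When the fit also took the array pair as a term (called the pair block from here on), the interval was -1.21 to -0.40, and the adjusted p in limma was 0.0609, still above the threshold. The size of the Osr1 change depended on single arrays, at -0.44 without null 3 and -1.32 without heterozygote 1, both of pair 1. With a whole pair left out it was -0.95 (pair 1), -0.60 (pair 2) and -0.87 (pair 3).

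Osr2, the paralogue, had a change of opposite sign. Its values were 8.93, 9.34 and 8.52 in nulls 1 to 3, against 7.82, 8.31 and 8.52 in heterozygotes 1 to 3. Every null array was above every heterozygote array, but null 3 and heterozygote 3 were only 0.0093 apart. The change was 0.71 ± 0.26 (SE) with a 95% interval from 0.11 to 1.31 for the gene on its own, and it missed the threshold (limma, adjusted p = 0.380 over all genes). Differences within pairs were 0.70, 0.62 and 0.82, the closest agreement between pairs among the 7 genes (SD 0.10). Osr2 passed under the pair block (limma, adjusted p = 0.0274). Its dimmer probe set gave a change of 0.21 with a 95% interval from -0.26 to 0.69 and arrays that overlapped.

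The balance between the paralogues was compared as Osr1 minus Osr2 on each array, a quantity whose absolute size has no meaning between probe sets but whose shift between genotypes does. It was 0.91, 1.13 and 0.52 in nulls 1 to 3, against 1.74, 2.74 and 2.64 in heterozygotes 1 to 3. All null arrays lay under all heterozygote arrays. The shift was -1.52 on the log2 scale, a 2.87-fold lower Osr1 to Osr2 ratio in null cells, with a two-sided exact permutation p of 0.10 (n = 3 each), the smallest that 3 against 3 arrays allow. With 1 array left out, the shift lay between -1.84 and -1.34, and with the mean over probe sets it was -1.27. How often the difference of 2 genes separates the genotypes in this way was not counted. A list of 4 Groucho corepressor genes and the zinc finger gene Sp8 was set beside the Osr genes, and 0 of these 5 passed in limma. An unadjusted p under 0.05 was found for 0 of them, 0 passed with the pair block, and the median change was 0.02. The nearest to passing was Tle1 (0.32 ± 0.21, SE).

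Wt1 was level between the genotypes. Its only probe set read 9.73, 9.57 and 9.84 in nulls 1 to 3, against 9.78, 9.76 and 9.87 in heterozygotes 1 to 3. The ranges overlapped in part, with null 3 inside the heterozygote range and nulls 1 and 2 just under it. Its change of -0.09 had a 95% interval from -0.43 to 0.26 (limma, adjusted p = 0.985), and the differences within pairs were 0.06, -0.03 and -0.30. Of 10 measured partners and relatives of Wt1, 0 passed in limma, 0 had an unadjusted p under 0.05 and 0 passed with the pair block. Among them, Basp1, a corepressor that binds Wt1, had a change of 0.37 ± 0.17 (SE, limma, adjusted p = 0.568) and the antisense transcript gene Wt1os had values overlapping between genotypes with a change of 0.06. The arrays' strand design is not given in the sources used here, so Wt1 and Wt1os signals may not be fully separate.

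Dpf3, which reads histone marks for the BAF complex, had values of 6.97, 6.91 and 7.04 in nulls 1 to 3, against 6.82, 7.002 and 7.20 in heterozygotes 1 to 3. The null arrays lay inside the heterozygote range, and the change was -0.04 with a 95% interval from -0.41 to 0.33 (limma, adjusted p = 0.992). A dimmer probe set had the opposite sign, at 0.23 with a 95% interval from -0.40 to 0.85, and neither passed. Of 18 other measured genes of the BAF complex, 0 passed in limma, 2 had an unadjusted p under 0.05 and 0 passed with the pair block, with a median change of 0.08. Those 2 were the subunit genes Smarcd3 (0.48 ± 0.20, SE) and Ss18l1 (-0.36 ± 0.15).

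Traf1 was the gene of the set that fell. It read 6.37, 6.34 and 6.05 in nulls 1 to 3, against 7.56, 8.03 and 7.65 in heterozygotes 1 to 3. All null arrays were more than 1 log2 unit under the lowest heterozygote array. The means of 6.25 ± 0.17 in nulls and 7.75 ± 0.25 in heterozygotes (SD, n = 3 each) gave a change of -1.49 ± 0.19 (SE), a 2.82-fold fall (limma, adjusted p = 0.0117, or 0.00666 under the pair block). The pairs agreed, with differences of -1.50, -1.67 and -1.31. The call was lost without heterozygote 3 (limma, adjusted p = 0.0508), without pair 2 (0.174) or pair 3 (0.188), and when the mean of both its probe sets was used (0.0534).

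The second Traf1 probe set was dim. It read 3.68, 3.94 and 3.73 in nulls 1 to 3, against 3.77, 5.22 and 5.06 in heterozygotes 1 to 3, and 4 of its 6 values were under 4.79, the 33rd percentile of all values. It was lower by 1.54 and 1.13 in null within pairs 2 and 3 but by only 0.044 within pair 1, where both arrays were at the dim end. On its own it did not pass (limma, adjusted p = 0.506 over all probe sets).

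Other TRAF genes did not pass. Of 5 measured, 0 passed in limma and 1, Traf5, had an unadjusted p under 0.05. Traf5, a TRAF adaptor of receptors of the same superfamily, had a change of -1.06 ± 0.33 (SE, limma, adjusted p = 0.256), with arrays that did not overlap and differences of -0.70, -1.15 and -1.33 within pairs. It passed with the pair block (adjusted p = 0.0240). Among 16 measured genes of the NF-kappaB and tumour necrosis factor receptor pathway, which lies downstream of such receptors, 0 passed in limma and 2 had an unadjusted p under 0.05. The inhibitor gene Tnfaip3 had a change of 0.78 ± 0.18 (adjusted p = 0.0982) and passed with the block (0.0194), and the adhesion gene Icam1 had a change of 0.41 ± 0.17. The pathway's median change was 0.03.

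Crym, whose protein binds thyroid hormone in the cytosol, had values of 8.07, 7.59 and 8.63 in nulls 1 to 3, against 9.36, 9.59 and 9.01 in heterozygotes 1 to 3. The genotypes did not overlap, and the nearest arrays were null 3 and heterozygote 3. Means were 8.10 ± 0.52 in nulls and 9.32 ± 0.29 in heterozygotes (SD, n = 3 each). The change of -1.22 had a 95% interval from -1.87 to -0.58 for the gene on its own and missed the threshold (limma, adjusted p = 0.105 over all genes). Differences within pairs were -0.73, -1.52 and -1.42, and the gene passed under the pair block (adjusted p = 0.0265) and without null 3 (0.0486). Of 9 other measured genes that handle thyroid hormone, 0 passed in limma and 2 had an unadjusted p under 0.05. These were the receptor gene Thra (0.76 ± 0.20, SE) and its partner Rxra (0.76 ± 0.24), each higher in every null array than in any heterozygote array, and both passed with the block (adjusted p = 0.0411 and 0.0369).

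Spock2 had values of 10.17, 10.53 and 10.28 in nulls 1 to 3, against 11.001, 11.36 and 11.69 in heterozygotes 1 to 3. No null array reached the lowest heterozygote array. The change was -1.03 ± 0.21 (SE), or 2.04-fold lower in null, with a 95% interval from -1.51 to -0.54 for the gene on its own, and it narrowly missed the threshold over all genes (limma, adjusted p = 0.0729). Under the pair block it did pass (0.0194), as it did with array weights (0.0149), without heterozygote 1 (0.0311) and with a prior variance that depends on intensity (0.0300). Within pairs the differences were -0.72, -1.19 and -1.17.

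Both Spock2 probe sets read lower in null. The dimmer one read 7.37, 7.36 and 7.16 in nulls 1 to 3, against 7.83, 9.04 and 8.74 in heterozygotes 1 to 3. Its genotypes did not overlap either, and its change was -1.24 with a 95% interval from -1.93 to -0.55 (limma, adjusted p = 0.149 over all probe sets). Under the pair block this dimmer probe set narrowly missed the threshold (limma, adjusted p = 0.0520 over all probe sets), while the brighter one passed (0.0297). Among 7 related genes of the testican and SPARC family, Smoc2, a secreted matricellular protein gene, rose by 1.31 ± 0.18 (SE, limma, adjusted p = 0.0167) and the other 6 did not pass. Spock1, another testican gene, had a change of -0.60 ± 0.19 (adjusted p = 0.255) with arrays that did not overlap. The change of Sparcl1 was 1.63 ± 0.51, which missed the threshold without the pair block (limma, adjusted p = 0.250) and passed with it (0.00602).

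**Figure D2:**
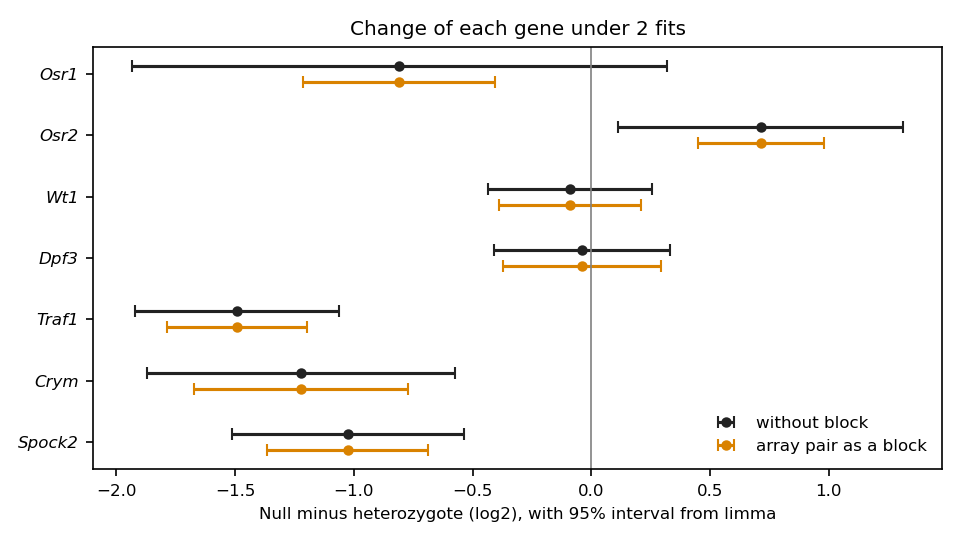
Change of each gene (null minus heterozygote, log2, horizontal axis) with its 95% interval for the gene on its own, from limma without a block (black) and with the array pair as a block (orange). For Osr1 the interval runs from -1.94 to 0.32 without the block and from -1.21 to -0.40 with it.

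**Figure D3:**
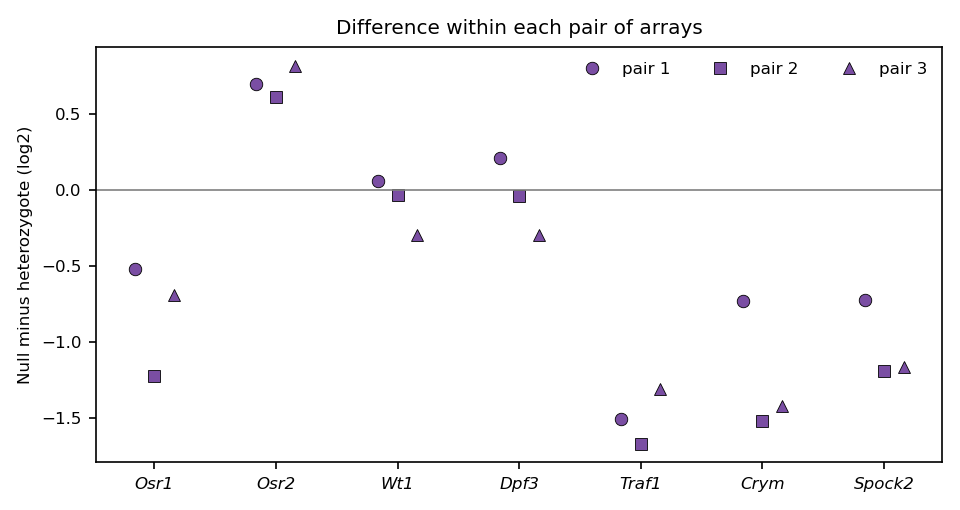
Difference between the null and the heterozygote array (log2, vertical axis) within each of the 3 array pairs. The pairs lie between 0.62 and 0.82 for Osr2 and between -1.67 and -1.31 for Traf1, whereas Wt1 and Dpf3 have values on both sides of 0.

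The pair block moved 3 of the genes across the threshold, Osr2, Crym and Spock2, so that with Traf1 4 of 7 passed, 3 lower and 1 higher in null. Over all genes 4.53% passed under that fit, 1.88% lower and 2.65% higher in null. The labels do not record this pairing, which comes from the control probe sets alone.

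The sequence just before the gene start is shown for Traf1 and Spock2, the genes of the set that were lower in null and for which the RefSeq promoter table (GRCm38.p6) held a window. It held windows for 3 of the 7 genes, the third being Dpf3. Only bases outside the annotated gene are printed, on the gene's strand. The Traf1 stretch lies at chr2:34961813-34962022 (minus strand, 210 bases) and the Spock2 stretch at chr10:60106007-60106256 (plus strand, 250 bases).
Traf1: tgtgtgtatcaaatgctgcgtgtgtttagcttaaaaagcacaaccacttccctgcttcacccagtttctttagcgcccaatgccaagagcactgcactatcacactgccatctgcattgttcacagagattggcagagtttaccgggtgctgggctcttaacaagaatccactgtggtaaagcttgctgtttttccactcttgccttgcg
Spock2: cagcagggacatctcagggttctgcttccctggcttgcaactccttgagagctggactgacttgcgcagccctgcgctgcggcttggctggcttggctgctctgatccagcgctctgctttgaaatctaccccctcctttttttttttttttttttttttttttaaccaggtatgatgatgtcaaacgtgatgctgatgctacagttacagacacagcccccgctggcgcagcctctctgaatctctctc
The window of 250 bases before each start was searched on both strands for GGGANTT, letters that open NF-kappaB sites, and for GTCANGC, letters of the core bound by paired domains such as that of Pax2. These letters were absent from both windows, so no base is in capitals. Dpf3 held neither as well. Over 32841 windows of the table, 14.4% held the NF-kappaB letters and 8.8% the paired-domain letters. The GC content was 47.6% in the Traf1 stretch and 51.2% in that of Spock2.

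For each gene, the 3 most alike in pattern were found as those with the smallest root mean square difference over the 6 arrays, after each gene was centred on its own mean. The candidates were genes whose spread was at least 50% of that of the gene itself. The difference takes in the shift between genotypes, so a close neighbour has a similar change by this choice. That a neighbour fell is therefore no separate result. Nearest to Traf1 were the homeobox gene Irx1 (0.061 log2 units), Stc1 (0.13) and Trpv4 (0.16), all of which fell in null themselves. Nearest to Spock2 were Kcnmb2 (0.075), the growth factor gene Fgf10 (0.12) and Ap1s3 (0.14), and of these Ap1s3 fell. Crym was nearest to Ajap1 (0.12), Pbld2 (0.16) and Ppargc1a (0.17), and of these Ppargc1a fell (limma, adjusted p = 0.0295).

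The Osr genes had different neighbours from each other. Osr1 was nearest to Csf2ra (0.16), the nerve growth factor receptor gene Ngfr (0.17) and Vps33b (0.23), which share its low values on both arrays of pair 1. Osr2 was nearest to the zinc finger gene Klf4 (0.0996), Arhgef17 (0.0996) and Fscn2 (0.11), and none of these 6 passed. The nearest genes to Wt1 (Birc6, Nfxl1 and Snx30) and to Dpf3 (D6Ertd474e, Clec1a and Ccdc66) lay within 0.0472 of them, among nearly flat profiles that hold little to compare.

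The other genes of the cap and metanephric mesenchyme set the 7 genes in context. Of 18 measured, 4 fell and 1 rose (limma, adjusted p under 0.05) and 13 did not pass, with a median change of -0.60. Those that fell were Gdnf, the ligand that draws out the ureteric bud, by 2.01, the regulators Sall1 by 1.68 and Eya1 by 1.04, and the growth factor gene Bmp7 by 1.31. Cited1, a co-regulator of early progenitors, rose by 1.76. Under the pair block 7 fell and 1 rose. The arrays of 10 were lower in null without overlap and those of 1 were higher, where over all genes 7.16% were lower and 6.49% higher. The changes of these 18 ran from -2.19 (Uncx) to 1.76 (Cited1). Nearly all genes on the arrays lie in that range, so that all 7 genes do too sets them apart from nothing.

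**Figure D4:**
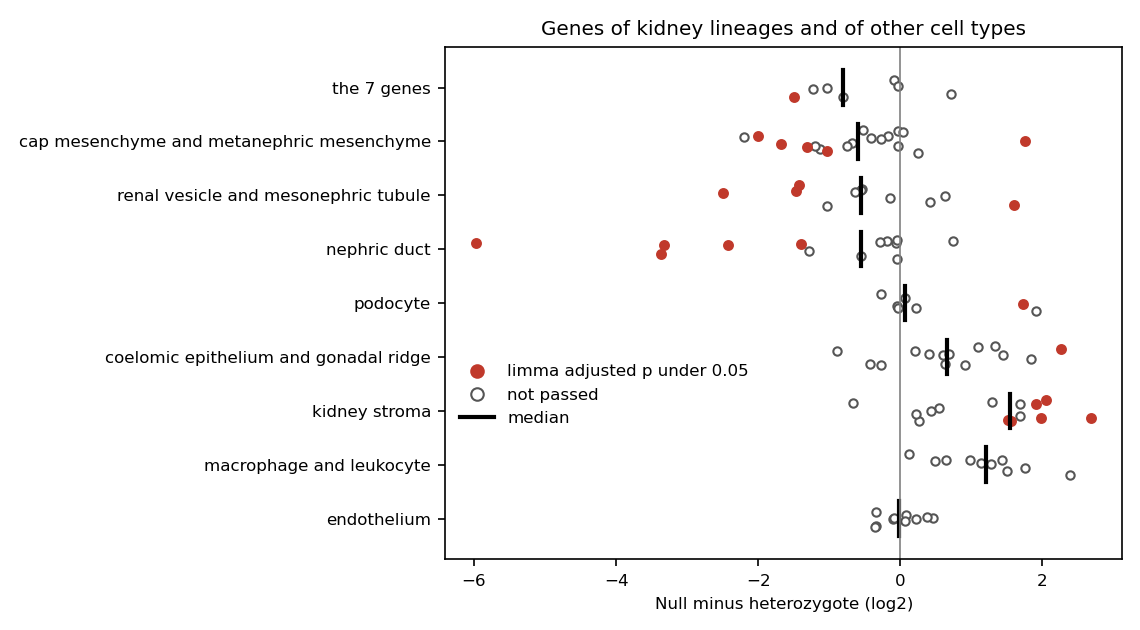
Change of each gene (null minus heterozygote, log2, horizontal axis) for the 7 genes and for lists of kidney lineages and other cell types that leave the 7 out, with red points for limma adjusted p under 0.05, open points for the rest and a bar at each median. Medians are -0.81 for the 7 genes, -0.60 for the cap mesenchyme list and 1.54 for kidney stroma.

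Genes of other lineages in the sorted cells also differed. Of 14 stromal genes, 6 rose and 0 fell, among them Pdgfrb (1.90) and Tbx18 (2.05), with a mean level over the list of 9.42 to 9.73 in nulls and 8.09 to 8.65 in heterozygotes. The other 8 did not pass, among them Pdgfra (1.69), Col3a1 (1.68), Col1a1 (1.30) and Foxd1 (0.55, limma, adjusted p = 0.351). Meis1 (0.26), Meis2 (0.22) and Ntn1 (-0.66) did not pass either. Among the 14 stromal genes, 11 had an unadjusted p under 0.05 in limma and 9 passed with the pair block, all higher in null. The arrays of 11 were higher in null without overlap, against 6.49% of all genes. Of 13 nephric duct genes, 5 fell and 0 rose, among them Ret (-3.37) and Calb1 (-5.97, with nulls 1 and 2 under 4.79, so that its size is uncertain), with a mean level of 7.98 to 8.57 in nulls and 9.42 to 10.04 in heterozygotes. The median change of the duct list was smaller, at -0.55, and the epithelial genes Epcam (-0.06), Krt8 (-0.05) and Krt18 (-0.05) were nearly level. With the pair block 6 duct genes passed lower in null and 1, Tfap2a (0.75), passed higher (limma, adjusted p = 0.0225). Of 14 genes of the coelomic epithelium and gonadal ridge, where Wt1 is made as well, Hsd3b1 rose (2.26) and 13 did not pass, and the mean level was 7.66 to 7.96 in nulls and 6.81 to 7.40 in heterozygotes. In that list 9 genes had an unadjusted p under 0.05 in limma, and 4 passed with the pair block, all higher in null. The arrays did not overlap for 7 genes that were higher in null and 2 that were lower, and the median change was 0.66. The change was positive for all 10 genes of macrophages and leukocytes, whose mean level was 6.88 to 8.17 in nulls and 5.77 to 6.98 in heterozygotes. None of these 10 passed in limma, 5 had an unadjusted p under 0.05 and 4 passed with the pair block, and the defining gene Ptprc was under 4.79 on every array. In the endothelial list 0 of 10 passed or had an unadjusted p under 0.05, and its mean level was 5.14 to 5.57 in nulls and 5.15 to 5.59 in heterozygotes. The erythroid list had 0 of 7 pass in limma, 0 at an unadjusted p under 0.05 and 0 with the pair block. The part of these shifts in the values of the 7 genes was not tested.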

How the data were processed

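The authors deposited 1 log2 value per probe set and array (45101 probe sets, 64 of them array controls). Each array received biotin-labelled cDNA made from 10 ng of RNA, per the labels' protocols. Affy, RMA and limma are named in the submitters' processing notes, without versions or settings, which the sources used here do not give. RMA equalizes the distributions of arrays, which hides differences in total RNA per cell, and compresses differences between dim probe sets. Precision is limited by the small number of arrays.

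The platform annotation gave 34958 probe sets 1 symbol and 932 several, and 9211 were unnamed. Identifiers of 34754 matched a RefSeq gene table (GRCm38.p6), and 0 symbols changed. The deposited log2 values were tested in R 4.3.3 with lmFit and eBayes of limma 3.58.1 (two-sided, no covariates, Benjamini-Hochberg over 18194 genes, threshold 0.05). A limma fit without the pair block was first tried on simulated data with independent arrays. The pair block, the matching into pairs and the permutation test were not tried in that way. Replicates were numbered in the order of deposit. The array pairs came from 18 hybridization-control probe sets, matched without regard to genotype (summed distance 1.97, against 5.06 for the next of 15 matchings). Deviations from the genotype means correlated at 0.377 or more within pairs and at most 0.0972 between opposite genotypes of different pairs. Such deviations cancel out within each genotype, so positive values within pairs push those between pairs down. The low values between pairs are therefore no separate support for the pairs.

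The 7 genes and the 17 gene lists were chosen with earlier results of these data known. Named beside them are the 3 genes most alike to each and list members that passed, not all of them for the stromal and duct lists. Where none passed, some of the 4 with the smallest p are named. Traf5, Ptprc, Spock1, Wt1os, Sparcl1 and other genes outside that rule were picked once values were known. Some listed genes are not analysed here.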

Additional observations from a re-analysis of the deposited data

How the results depend on the processing

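Of 18 alternatives, the Osr1 change kept its sign and missed the threshold in all. The Traf1 call was lost with the mean over probe sets (-1.20), without moderation (-1.49, adjusted p = 0.248), and without pair 2 (-1.41), pair 3 (-1.59) or heterozygote 3 (-1.54), and it held in 13 of the 18. Spock2 passed with an intensity-dependent prior (-1.03), array weights (-1.18), the pair block (-1.03) and without heterozygote 1 (-1.20). Crym passed with array weights (-1.27), the pair block (-1.22) and without null 3 (-1.49), and Osr2 with the pair block alone (0.71). Signs turned, with no call, for Dpf3 with the mean over probe sets (0.094), without heterozygote 3 (0.058) and without pair 3 (0.090), and for Wt1 without pair 3 (0.015). The Osr1 to Osr2 shift kept its sign in all 9 alternatives run, at -1.27 with the mean over probe sets. With 1 array left out, changes ranged from -1.32 to -0.44 for Osr1, 0.51 to 0.92 for Osr2, -0.15 to -0.016 for Wt1, -0.13 to 0.058 for Dpf3, -1.59 to -1.35 for Traf1, -1.49 to -0.97 for Crym, -1.20 to -0.85 for Spock2 and -1.84 to -1.34 for the Osr shift. In the same fits 84 to 318 of 18194 genes passed, against 253 with all arrays, the count being 86 without null 1, 110 without null 2, 98 without heterozygote 2 and 84 without heterozygote 3. It was 551 with array weights, 824 with the pair block, 3 without moderation, 1 without pair 2 and 2 without pair 3. The omission of pairs was added after the data were seen, and the cause of these differences was not tested. Differences between dim probe sets, such as the second of Traf1, are limited by signal over background.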

Other observations

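Genes of early nephrons and of podocytes, where Wt1 stays high later in development, included both rises and falls. Of 11 measured genes of renal vesicles and mesonephric tubules, Lhx1 fell by 2.50, Irx1 by 1.47 and Irx3 by 1.42 in null, and the cadherin gene Cdh6 rose by 1.61 (limma, adjusted p under 0.05), with a median change of -0.55. Of 7 measured podocyte genes, Podxl, a surface sialomucin gene, rose by 1.72 ± 0.27 (SE, limma, adjusted p = 0.0247) and 6 did not pass. Among those 6, Synpo had a change of 1.91 ± 0.39 (SE, limma, adjusted p = 0.0672), with arrays that did not overlap. With the pair block 2 of the 7 passed, Podxl and Synpo (0.0330), and the list's median change was 0.07. Nphs1, which encodes nephrin of the slit diaphragm, was under 4.79 on every array, as was Ptpro.

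Among 10 neuronal genes, measured in cells that had been sorted for EGFP, the neurofilament gene Nefm rose by 1.44, Map2 by 1.90 and Stmn2 by 2.64, while Elavl4 fell by 1.54 (limma, adjusted p under 0.05) and 6 did not pass.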
